A study of Mus musculus with 6 samples.

Results

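The genes described here are 31 genes of cholesterol synthesis and of the processing of sterol regulatory element-binding proteins (SREBPs) in mouse liver. They were taken from a table of 49671 genes by Ensembl identifier, through a list of pathway members. The list was set by pathway role, but with earlier results of these data known. The list held 6 genes of SREBP processing, 19 enzymes of the synthesis pathway, 4 genes of sterol transport and esterification, and 2 further genes, Aacs and Casp2. All 31 were in the table and all 31 passed the filter on low counts, so no member was left untested.

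RNA was taken from bulk liver of mice housed for 6 months, taken here as an age of 6 months in both groups, and sequenced. Of the 6 libraries, 3 came from wild-type (WT) mice and 3 from mice homozygous for deletion of the p75 neurotrophin receptor (p75NTR KO). The labels give 1 strain for both groups, B6.1129S4-Ngfr/J -Jackson lab, and the study's methods state that the line was bred to yield WT, heterozygous and KO mice on a standard diet. The KO allele removes an exon inside Ngfr, the gene of p75NTR, in all cells of the mouse, so transcripts of the remaining exons can still be counted. The comparison asks whether liver lacking p75NTR differs in the expression of these genes. Libraries are named WT 1, WT 2, WT 3, KO 1, KO 2 and KO 4, as in the labels, which do not give the sex of the mice or the hour of sampling.

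Cholesterol is built from acetyl-CoA by way of mevalonate, isoprenoid diphosphates, squalene and lanosterol, and the liver is a major site of this synthesis. SREBP-2, the product of Srebf2, is made as a precursor in the membrane of the endoplasmic reticulum. When sterols are scarce, Scap carries it to the Golgi, where the proteases encoded by Mbtps1 and Mbtps2 release the fragment that enters the nucleus and activates genes of the pathway, whereas the Insig proteins hold Scap back when sterols are plentiful. Only RNA was measured here, so the cleavage of SREBP-2 is not seen in these values.

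The WT libraries held 27107209 to 31412855 counts and the KO libraries 29784429 to 32664149. Ngfr had 78 to 144 counts in WT and 27 to 53 in KO libraries. Levels are given as CPM, the count of a gene scaled to a common library size, with library totals first adjusted by the trimmed mean of M-values (TMM). Summed levels of 6 hepatocyte markers were 104700 to 119200 CPM in WT and 92800 to 111400 CPM in KO. Most of these sums was Alb, at 89100 to 103100 CPM in WT and 76220 to 93680 CPM in KO. Alb had a negative log2 fold change, KO over WT (-0.16), and the other 5 markers a positive one. The median of the 6 was 0.05. KO 4 held 4712 counts of 4 Y-linked genes, against 0 to 2 in each of the other 5 libraries. By these counts KO 4 came from a male, so the KO group mixed the sexes and the WT group did not. Values without KO 4 are therefore given beside those of all 6 libraries.

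Among the 31 genes, the highest level per length of exon was that of Ebp, at 88.6 CPM per kilobase, followed by Sc5d at 84.1, Insig1 at 72.7, Insig2 at 56.3 and Hmgcs1 at 51.5 CPM per kilobase. The lowest were Soat1 at 0.496, Casp2 at 0.703, Mbtps2 at 0.981 and Ggps1 at 1.19 CPM per kilobase. Enzymes of the same chain thus differed widely in level per length. The length is that of all annotated exons merged, not of the transcripts expressed, and this can lower some genes more than others. Mbtps2 also shares exonic bases with another gene, as given below. Neighbours in this order mostly overlapped across the libraries, as the plot of levels per length shows.

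**Figure D1:**
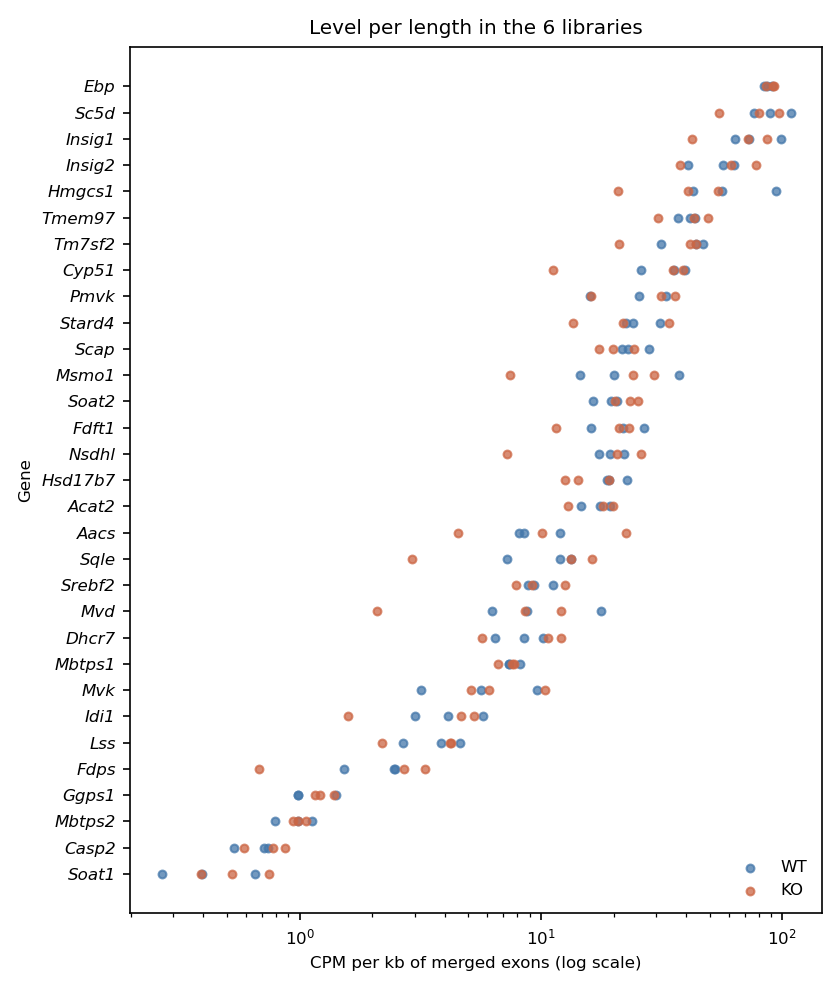
Level of each of the 31 genes in each of the 6 libraries, in CPM per kilobase of merged exons on a log scale, ordered by the mean. Each point is 1 library, blue for WT and orange for KO. Ebp has the highest mean (88.6 CPM per kilobase) and Soat1 the lowest (0.496), and for most genes the WT and KO points lie among each other.

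No member of the pathway passed the test between KO and WT. With edgeR's quasi-likelihood test on all 6 libraries, 0 of the 31 genes had an adjusted p under 0.05, and the same held for 0% of all 13773 genes tested. The smallest adjusted p among the 31 was 0.69, for Hsd17b7, which was also the 1 member with an unadjusted p under 0.05 (0.0447), where 7.17% of all genes had one. DESeq2 called 0 of the 31 as well, with a smallest adjusted p of 0.629, while it called 1.06% of the genes to which it gave an adjusted p. In 0 of the 31 genes did the KO libraries lie wholly above the WT libraries, or wholly below them, whereas 6.02% of all genes tested lay above and 6.36% below. In bulk tissue, fewer cells of a type and less RNA per cell cannot be told apart, and this bears on each level given here.

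Of the 31 log2 fold changes (KO over WT), 15 were positive and 16 negative, with a median of -0.02, beside a median of -0.001 over all genes tested. Among the 19 enzymes, 7 were positive and 12 negative, with a median of -0.13. The lowest value was that of Hmgcs1 (-0.74) and the highest that of Aacs (0.38). The standard errors (SE) were large in these genes, with a median of 0.33 for the enzymes against 0.18 over all genes tested. Accordingly, the 95% interval lay within a 1.5-fold difference in both directions for only 7 of the 31 genes, Srebf2, Mbtps1, Mbtps2, Acat2, Ebp, Tmem97 and Soat2, and reached beyond it for the other 24.

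Without KO 4 the signs shifted but no gene was called. Then 9 of the 31 log2 fold changes were positive and 22 negative, with a median of -0.2, and among the enzymes 3 were positive and 16 negative, with a median of -0.31. edgeR called 0 of the 31 genes, against 0.808% of all genes tested, with a smallest adjusted p of 0.333 for Scap. An unadjusted p under 0.05 was found for 2 of the 31, Scap (0.0263) and Stard4 (0.034), where 12.1% of all genes had one. DESeq2 without KO 4 also called 0 of the 31, against 3.01% of all genes, with a smallest adjusted p of 0.172 for Stard4. The median of the enzymes was positive without KO 1 (0.17) and without WT 3 (0.02), so its sign rested on single libraries. Without KO 1, 25 of the 31 log2 fold changes were positive and 6 negative, and 12 of the 31 had changed sign.

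**Figure D2:**
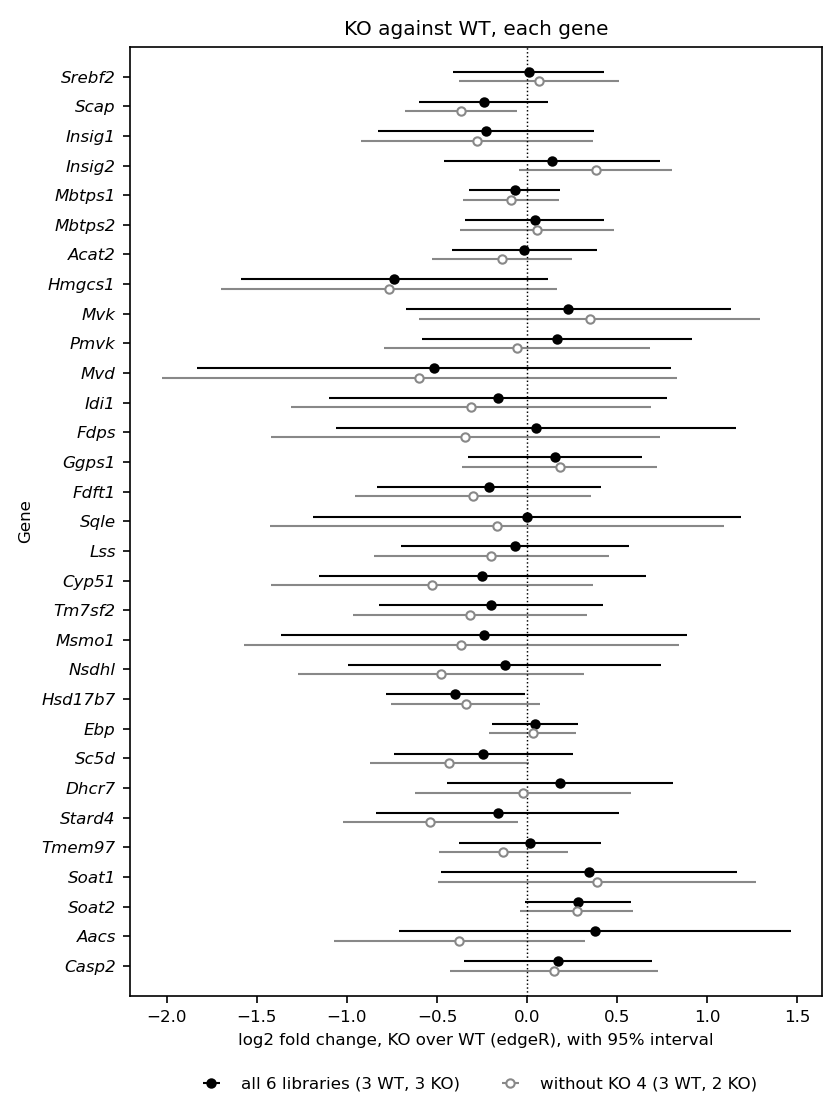
Log2 fold change of KO over WT for each of the 31 genes from edgeR, with its 95% interval, for all 6 libraries (filled) and without KO 4 (open). The interval from all 6 libraries crosses 0 in every gene except Hsd17b7 (log2 fold change -0.4, adjusted p = 0.69 in edgeR), and the intervals of Ebp and Mbtps1 are far shorter than those of Mvd, Sqle and Msmo1.

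Srebf2, on chromosome 15 from 82147181 to 82205379 of GRCm38, had 67.1, 63.8 and 80.8 CPM in WT 1, 2 and 3, and 56.4, 90.5 and 65.9 CPM in KO 1, 2 and 4. The KO group held both the lowest and the highest library. The group means were 70.6 ± 9.05 CPM in WT against 71 ± 17.6 CPM in KO (mean ± SD, n = 3 each). Here log2(KO/WT) was 0.01 (SE 0.18), with an interval from -0.41 to 0.43.

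Scap, the sterol-sensing escort of SREBPs, had 172, 162 and 209 CPM in WT 1, 2 and 3 and 130.1, 149 and 180.3 CPM in KO 1, 2 and 4. KO 4 lay within the WT range, and KO 1 and KO 2 lay below it. The fold change (log2) was -0.24 (SE 0.16, adjusted p = 0.863 in edgeR) with all libraries and -0.37 (SE 0.14, adjusted p = 0.333) without KO 4.

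The Insig genes, which encode the proteins that retain Scap in the endoplasmic reticulum, did not run together. Insig1, itself a known target of SREBPs, had 226, 197 and 305 CPM in WT 1, 2 and 3, and 131, 267 and 224 CPM in KO 1, 2 and 4. It was highest in WT 3 and lowest in KO 1. Insig2 had 198, 219 and 141 CPM in WT and 269.8, 214 and 131 CPM in KO in the same order of libraries. It was highest in KO 1, where Insig1 was lowest, and low in WT 3 and KO 4. Their log2 fold changes were -0.23 (SE 0.26) for Insig1 and 0.14 (SE 0.26) for Insig2.

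Mbtps1, the site-1 protease, was among the least variable members, at 77.8 to 86.7 CPM in WT and 69.9 to 81.4 CPM in KO. Mbtps2, the site-2 protease, lay at 7.99 to 11.4 CPM in WT and 9.47 to 10.8 CPM in KO. Their log2 fold changes of -0.07 (SE 0.11) and 0.04 (SE 0.17) had intervals inside the 1.5-fold bounds.

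The 8 enzymes from acetyl-CoA to the isoprenoid diphosphates were evenly divided, 4 with a positive and 4 with a negative log2 fold change, and their median was 0.02. The largest difference in size was in Hmgcs1, the cytosolic HMG-CoA synthase, on chromosome 13 from 119690379 to 119708260. It had 259, 196 and 432 CPM in WT 1, 2 and 3 and 95.9, 249.9 and 187 CPM in KO 1, 2 and 4. WT 3 was 1.9 times the mean of the other WT libraries, the other KO libraries averaged 2.28 times KO 1, and KO 2 lay inside the WT range. The fold change (log2) was -0.74 (SE 0.37, adjusted p = 0.781 in edgeR), with an interval from -1.59 to 0.12.

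Mvd, the mevalonate diphosphate decarboxylase, on chromosome 8 from 122433601 to 122443422, spanned the widest range of all 31 genes. It had 16.3, 11.7 and 32.9 CPM in WT 1, 2 and 3 and 3.895, 22.6 and 15.9 CPM in KO 1, 2 and 4, a span of 8.45 times between WT 3 and KO 1. The value of KO 1 rested on 123 counts and that of WT 3 on 908. The fold change (log2) was -0.52 with a SE of 0.58.

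Idi1, the isopentenyl diphosphate isomerase, and Fdps, the farnesyl diphosphate synthase, were also lowest in KO 1. Idi1 had 10.5 to 20.2 CPM in WT and 5.54, 18.5 and 16.3 CPM in KO 1, 2 and 4. Fdps had 6.46 to 10.4 CPM in WT and 2.85, 11.4 and 14 CPM in KO. In both genes KO 2 and KO 4 lay at or above the middle of the WT libraries. Acat2, which condenses acetyl-CoA to acetoacetyl-CoA, had a narrower range, from 33 CPM in KO 1 to 50.7 CPM in KO 4. Acat2 has a closely related neighbouring gene, Acat3, and how reads shared by both were counted was not stated.

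The other 3 enzymes of this stretch did not follow that order. Mvk, mevalonate kinase, was lowest in WT 2 (8.52 CPM) and highest in KO 2 (27.8 CPM). Pmvk, phosphomevalonate kinase, was as low in WT 3 (27.4 CPM) as in KO 1 (27.7 CPM) and highest in KO 4 (61.9 CPM). Ggps1, which draws farnesyl diphosphate into the side branch to geranylgeranyl diphosphate, stayed between 4.64 and 6.68 CPM in all 6 libraries. None of the 3 passed the test, with adjusted p-values of 0.955, 0.961 and 0.944 in edgeR.

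The 11 sterol enzymes, from squalene onward, had a median log2 fold change of -0.2 with all libraries, and 3 of the values were positive and 8 negative. Without KO 1, 9 of the 11 were positive, and Hsd17b7 (-0.27) and Sc5d (-0.04) were negative. In 10 of the 11, KO 1 was the lowest library. Sqle, squalene epoxidase and a control point of the pathway, lies on chromosome 15 from 59315077 to 59331192. It had 66.4, 40 and 74.2 CPM in WT 1, 2 and 3 and 16.2, 90 and 74.3 CPM in KO 1, 2 and 4. The mean of KO 2 and KO 4 was 5.06 times the level in KO 1, and KO 2 was the highest of all 6 libraries. The group means were 60.2 ± 17.9 CPM in WT against 60.2 ± 38.9 CPM in KO (mean ± SD, n = 3 each).

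Msmo1, the methylsterol monooxygenase, had 123, 89.3 and 230.4 CPM in WT 1, 2 and 3 and 45.6, 182 and 148 CPM in KO 1, 2 and 4. Cyp51, the lanosterol demethylase, had 158, 115 and 175 CPM in WT and 49.8, 156 and 172 CPM in KO. Both were highest in WT 3 and lowest in KO 1. Nsdhl, which acts after Msmo1 in removing the methyl groups, had 49.6 to 62.9 CPM in WT and 20.7, 59 and 74 CPM in KO 1, 2 and 4. For these 3 genes the mean of KO 2 and KO 4 was 3.22 to 3.61 times the level in KO 1, and their log2 fold changes lay between -0.25 and -0.13 with standard errors of 0.38 to 0.49. Without KO 4 they were -0.37 for Msmo1, -0.53 for Cyp51 and -0.48 for Nsdhl, and without KO 1 they were 0.17, 0.14 and 0.26.

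Fdft1, squalene synthase, Lss, which closes the rings to lanosterol, and Tm7sf2, a sterol reductase, had KO 1 at about the same distance. The mean of KO 2 and KO 4 was 1.92 times KO 1 for Fdft1, 1.92 times for Lss and 2.02 times for Tm7sf2. Tm7sf2 departed from the other 2 in WT 3, where it had 139 CPM against 193 and 206 CPM in WT 1 and WT 2. Exons of Fdft1 overlap those of Ctsb on the opposite strand over 774 bases, and Ctsb had 139476 counts in the 6 libraries. Whether counting used the strand was not stated, so reads of Ctsb cannot be told apart from those of Fdft1 in that stretch. Tm7sf2 shares 532 exonic bases with Vps51 on the same strand, and Cyp51 166 with Akap9 and Ggps1 257 with Arid4b on the opposite strand. Larger overlaps on the same strand are those of Mbtps2 with Yy2 (2867 bases) and of Fdps with Gm43738 (1124 bases). Yy2 and Gm43738 had 0 counts. How reads in such stretches were counted was not stated, and whether this lowered the levels of Mbtps2 and Fdps was not tested.

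Hsd17b7, a sterol ketoreductase on chromosome 1 from 169949535 to 169969241, was the member with the smallest p. It had 116, 95.5 and 97.5 CPM in WT 1, 2 and 3 and 64.2, 97.7 and 72.7 CPM in KO 1, 2 and 4. KO 2 lay inside the WT range, and the other KO libraries lay below it. The means were 103 ± 11.4 CPM in WT against 78.2 ± 17.4 CPM in KO (mean ± SD, n = 3 each), with a log2 fold change of -0.4 (SE 0.17, adjusted p = 0.69 in edgeR), with an interval from -0.78 to -0.01.

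The last steps of the pathway included its steadiest and some of its most abundant genes. Ebp, the sterol isomerase, had 199.8, 210.5 and 194 CPM in WT 1, 2 and 3 and 198, 212 and 214 CPM in KO 1, 2 and 4. Its highest library was 1.1 times its lowest, and KO 1 did not stand apart. Its log2 fold change was 0.05 (SE 0.1), with an interval from -0.19 to 0.28. Sc5d, the sterol desaturase that follows Ebp, had 370.4 to 527 CPM in WT and 266, 389 and 469.7 CPM in KO. Dhcr7, the reductase of the final double bond in one arm of the pathway, had 37.7 to 59.2 CPM in WT and 33.1, 62.4 and 70.8 CPM in KO. Both had KO 1 as the lowest library, and Dhcr7 had its highest in KO 4.

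Stard4, which moves cholesterol between membranes, had 135, 125 and 173 CPM in WT 1, 2 and 3 and 75.6, 123 and 189 CPM in KO 1, 2 and 4. KO 4 was the highest library and KO 1 the lowest. The fold change (log2) was -0.16 (SE 0.29) with all libraries and -0.54 (SE 0.21, adjusted p = 0.355 in edgeR) without KO 4. Tmem97, the sterol-binding protein also known as the sigma-2 receptor, had 50.9 to 59.6 CPM in WT and 42.1 to 67.9 CPM in KO, again with KO 1 lowest and KO 4 highest.

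The esterifying enzymes showed another order of libraries. Soat1, the form found in macrophages and many tissues, had 2.63, 3.86 and 6.38 CPM in WT 1, 2 and 3 and 7.32, 3.83 and 5.15 CPM in KO 1, 2 and 4. Its highest libraries were KO 1 and WT 3. The 8 Kupffer cell and macrophage markers, all of them detected, had their highest levels in the same libraries. Their summed level was 255, 284 and 532 CPM in WT 1, 2 and 3 and 461, 252 and 275 CPM in KO 1, 2 and 4. Their part in the values of Soat1 was not tested. Soat2, the hepatocyte form, had 36.5 to 45.7 CPM in WT and 45.1 to 55.7 CPM in KO, with the KO range overlapping the WT range only at its lower end. Its log2 fold change was 0.28 (SE 0.13, adjusted p = 0.731 in edgeR), with an interval from -0.01 to 0.58.

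Aacs, which activates acetoacetate for lipid synthesis, had 46.2, 32.9 and 31.3 CPM in WT 1, 2 and 3 and 17.5, 39 and 86.8 CPM in KO 1, 2 and 4. KO 4 was 2.6 times the mean of the other 5 libraries and KO 1 was the lowest. The fold change (log2) was 0.38 (SE 0.48) with KO 4 and -0.38 (SE 0.31) without it, so the sign turned on that library. Casp2, the protease caspase-2, had 3.76 to 5.22 CPM in WT and 4.17 to 6.14 CPM in KO. Its log2 fold change was 0.17 (SE 0.23, adjusted p = 0.944 in edgeR).

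**Figure D3:**
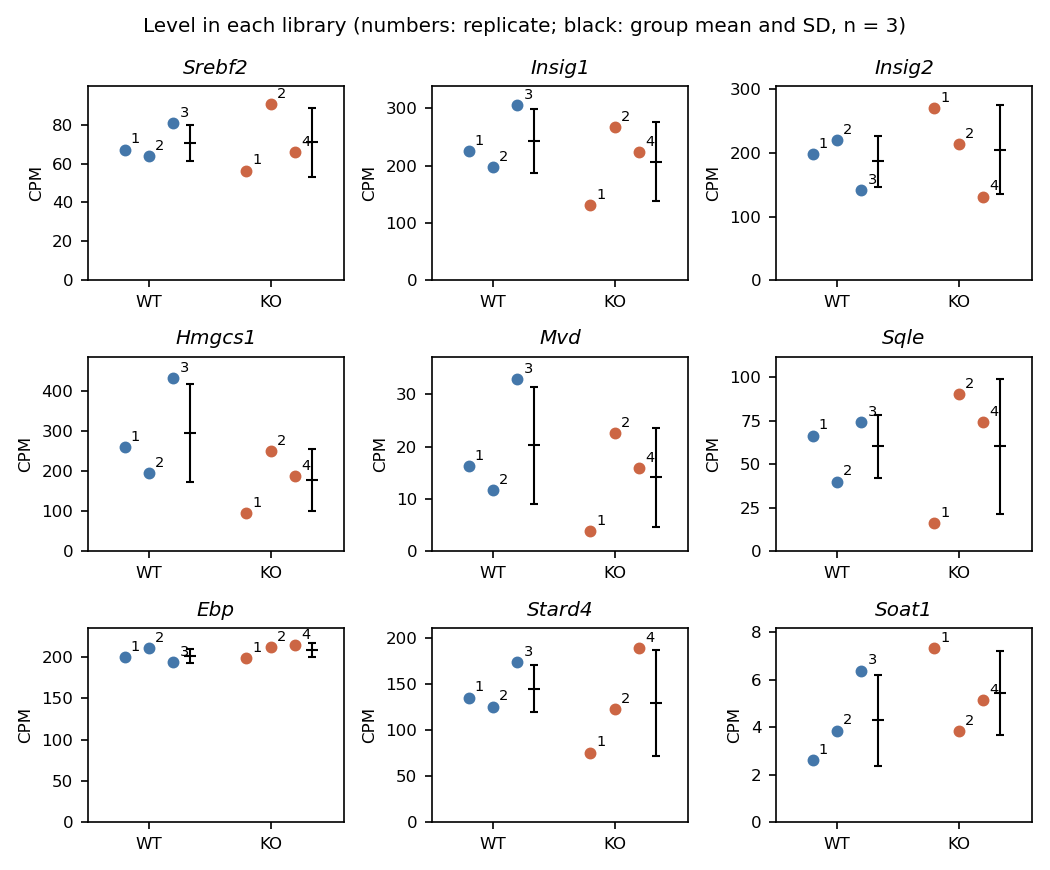
CPM in each library for 9 of the genes, with replicate numbers beside the points and the group mean and SD (n = 3) in black. KO 1 is the lowest of the 6 libraries for Hmgcs1, Mvd, Sqle and Stard4 (95.9, 3.895, 16.2 and 75.6 CPM), Ebp is level at 194 to 214 CPM, and Insig2 and Soat1 have KO 1 as their highest library.

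The variation among the enzymes was shared and was larger than that of most genes. The SD within groups of log2(CPM + 1) had a median of 0.56 for the 19 enzymes against 0.19 over all genes tested. It was above the median of all genes in 18 of the 19, with Ebp as the exception, and above the 90th percentile of 0.38 in 14 of the 19. Across the 6 libraries, the 171 pairs of enzymes had a median Pearson r of 0.71, and 152 of the pairs were positive, beside a median of about 0 over pairs of all genes tested. After removal of the group means the median was 0.79, and the first principal component held 83.3% of the variance of the enzymes. These correlations are descriptions over 6 libraries, which all pairs share.

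KO 1 stood apart in this pattern. It was the lowest library for 15 of the 19 enzymes and for 22 of the 31 genes, while it was the lowest for 16.6% of all genes tested, and all 19 enzymes lay below their own mean in it. WT 3 was the highest library for 8 enzymes and 11 of the 31 genes, against 19.2% of all genes, but it was also the lowest for 3 enzymes. Measured as the deviation of log2(CPM + 1) from each gene's own mean, the median of the 19 enzymes was -0.74 in KO 1 and 0.39 in WT 3. It was 0.17 in WT 1, -0.2 in WT 2, 0.26 in KO 2 and 0.23 in KO 4. The mean deviation of the enzymes was 0.32 in KO 2 as in WT 3, with 1 enzyme below its own mean in KO 2 and 4 in WT 3. The same median over all genes tested lay within 0.01 of 0 in every library.

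The shared pattern weakened without KO 1, a setting chosen after the data were seen. The median r of the 171 pairs was then 0.44, and 109 of the pairs were positive. The first principal component then held 70% of the variance of the enzymes, against 83.3% with all libraries. Without KO 4 the median r was 0.81. The distance of KO 1 differed between the enzymes, from 1.07 times for Ebp and 1.13 times for Ggps1 to 4.45 times for Fdps, 4.94 times for Mvd and 5.06 times for Sqle, as the mean of KO 2 and KO 4 over KO 1. Outside the enzymes, the distance was largest for Aacs (3.6 times), Stard4 (2.06 times), Insig1 (1.87 times) and Tmem97 (1.51 times). 4 members had KO 1 as their highest library, namely Insig2, Soat1, Soat2 and Casp2.

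**Figure D4:**
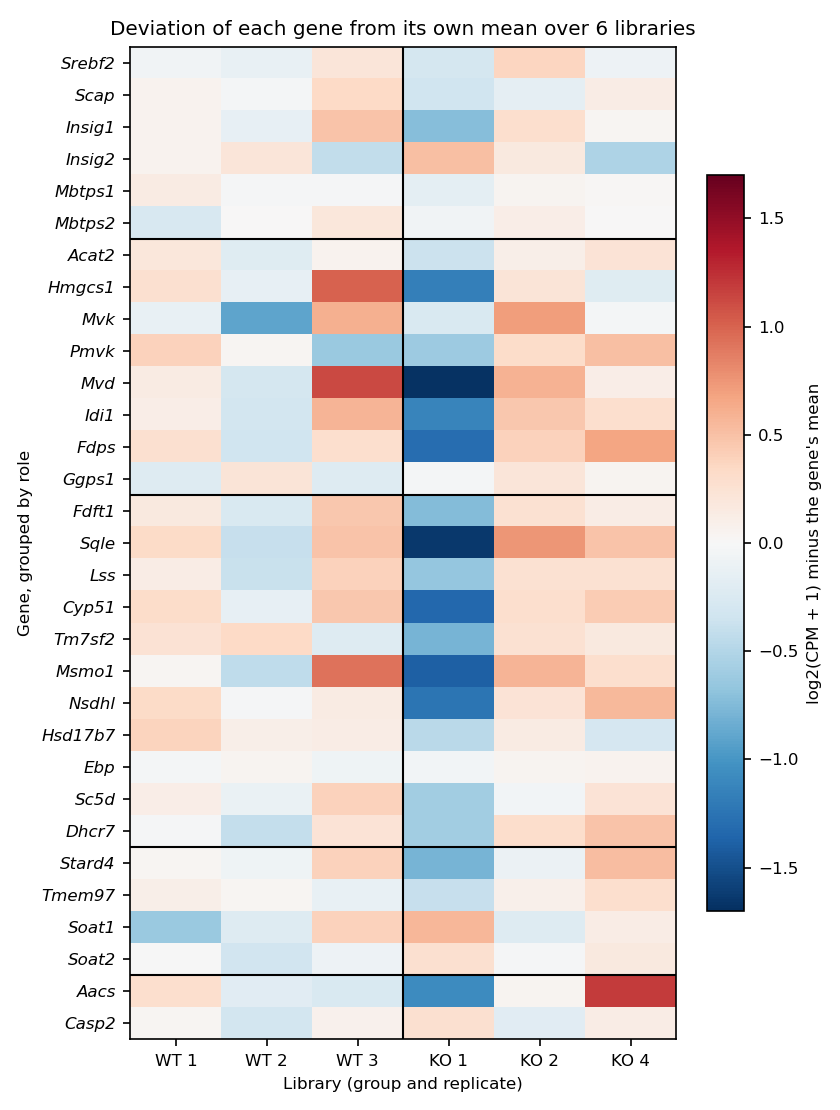
Deviation of log2(CPM + 1) from each gene's mean over the 6 libraries, with genes in rows by role and libraries in columns, red for above and blue for below the mean. The column of KO 1 is blue for all 19 enzymes (median -0.74), that of WT 3 is red for most (median 0.39), and Insig2, Soat1, Soat2 and Casp2 are red in KO 1.

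Srebf2 was itself lowest in KO 1, and its level was compared with that of the other 30 genes across the 6 libraries. Pearson's r was positive for 26 of the 30 and for all 19 enzymes, whose median r was 0.68, whereas 50% of all genes tested had a positive r. For Insig1 r was 0.86 (exact permutation p = 0.0222) and Spearman's rho 0.94 (exact permutation p = 0.0167). The next r was that of Msmo1, at 0.85 (two-sided exact permutation p = 0.0278). Mvd and Fdft1 had the same rho as Insig1. After Benjamini-Hochberg adjustment over the 30 genes none passed. The smallest adjusted exact permutation p was 0.222 for r and 0.143 for rho. With 6 libraries the exact permutation p of rho cannot fall below 0.00278. When KO 2 and WT 3, the libraries farthest from the median of Srebf2, were left out, the median r of the enzymes over the 4 remaining libraries was 0.96, with KO 1 among them. Without KO 1 it was 0.41, and 15 of the 19 enzymes were positive. Insig2 had an r of -0.34 (exact permutation p = 0.529, rho -0.49 with exact permutation p = 0.356).

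Other genes of the pathway were also not called. In the list of sterol sensing and turnover at the endoplasmic reticulum, 0 of 18 passed in edgeR or DESeq2, 6 were positive and 12 negative, and the median log2 fold change was -0.07. Low p-values in it were those of Sec23a, a coat protein of the vesicles that leave the endoplasmic reticulum (log2 fold change -0.21, adjusted p = 0.787 in edgeR), and Pgrmc2, a membrane haem-binding protein (-0.2, adjusted p = 0.807). In the branches from isoprenoids to ubiquinone, dolichol and prenylated proteins, 0 of 13 passed and the median was -0.09, and the smallest p-values were those of Rabggta (-0.14), Pdss1 (0.4) and Fnta (-0.13). Among 8 cofactors and regulators of nuclear SREBPs, 0 passed and the median was 0.06. There the smallest p-values were those of Nfyb (-0.19), Nfya (0.23) and Fbxw7 (0.2). KO 1 was the lowest library for 8 of the 18, 3 of the 13 and 0 of the 8 genes, against 15 of the 19 enzymes.

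The fatty acid synthesis genes, which respond more to SREBP-1 than to SREBP-2, shared the low KO 1 but not the high WT 3. Of 16 such genes, 0 passed in edgeR or DESeq2 with all libraries, 8 were positive and 8 negative, and the median log2 fold change was 0.04. Their median deviation was -0.61 in KO 1, as against -0.74 for the 19 enzymes, and KO 1 was the lowest library for 13 of the 16. In WT 3 it was -0.16, where that of the enzymes was 0.39, and in KO 4 it was 0.49, where that of the enzymes was 0.23. Scd1, the stearoyl-CoA desaturase, which was chosen after its values were seen, had 8537, 8946 and 1952 CPM in WT 1, 2 and 3 and 2975, 10160 and 14360 CPM in KO 1, 2 and 4. WT 3 was thus the lowest library for Scd1 and the highest for Hmgcs1. Elovl5, a fatty acid elongase, Fads2, a desaturase, and Me1, malic enzyme, had the smallest p-values of this list, with log2 fold changes of -0.47, -0.61 and -0.75 and adjusted p-values of 0.651, 0.747 and 0.716 in edgeR. Without KO 4, DESeq2 called 3 of the 16, Elovl5 (adjusted p = 0.0418), Fads2 (adjusted p = 0.000163) and Mlxipl (adjusted p = 0.0159), all lower in KO, where it called 3.01% of all genes and 0 of the 31 genes of cholesterol synthesis and SREBP processing. edgeR without KO 4 called 0 of the 16, with adjusted p-values of 0.246, 0.0987 and 0.133 for these 3 genes. The difference between the lists was not tested.

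**Figure D5:**
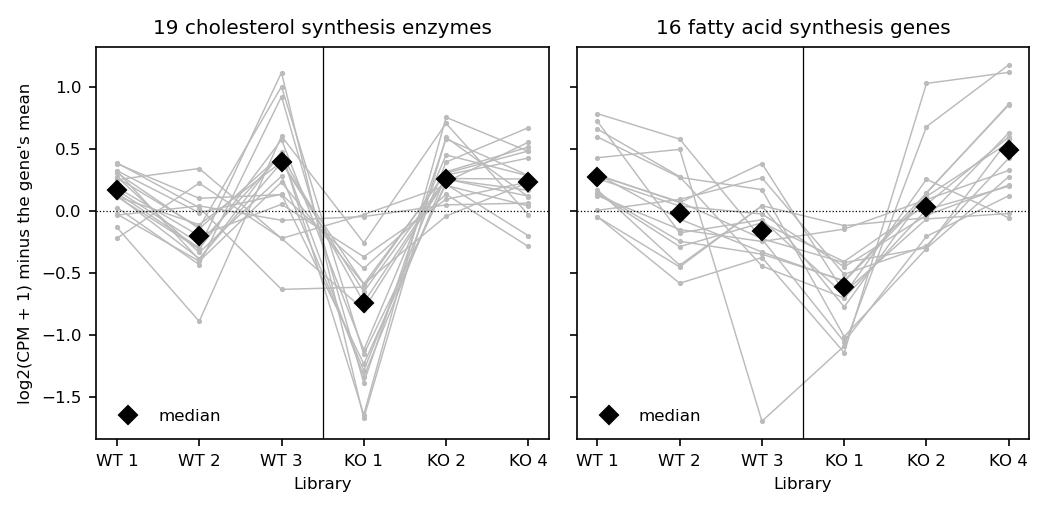
Deviation of log2(CPM + 1) from each gene's own mean in each library for the 19 cholesterol synthesis enzymes (left) and 16 fatty acid synthesis genes (right). Each grey line is 1 gene and each diamond the median. Both medians are lowest in KO 1 (-0.74 and -0.61), while in WT 3 the median of the enzymes is 0.39 and that of the fatty acid genes -0.16.

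Markers of other cell types and states also differed between these libraries. In KO 1 the summed level of 5 neutrophil markers was 14.5 CPM, against 2.03 to 3.62 CPM in WT and 4.61 and 5.04 CPM in KO 2 and KO 4, with Ly6g at 0 in 4 libraries. The adipocyte markers summed to 5.58 CPM in WT 3 and to 0.0633 to 0.482 CPM in the other libraries. The fasting genes, which rise in liver when food is withdrawn, summed to 6158, 6977 and 5072 CPM in WT 1, 2 and 3 and 8674, 9711 and 5798 CPM in KO 1, 2 and 4. As the deviation from their own mean, the median of the 10 genes was 0.33 in KO 2, 0.06 in KO 1 and -0.56 in WT 3, and they did not move as 1 group, since Pdk4 and Fgf21 were lowest in KO 1. Ciart, a repressor in the circadian clock, had 4.2 to 6.04 CPM in WT and 7.57 to 14.5 CPM in KO and was called by DESeq2 (adjusted p = 0.00183) but not by edgeR (adjusted p = 0.243). DESeq2 also called Cps1, the entry enzyme of the urea cycle (log2 fold change 0.86, adjusted p = 0.000206), S100a9, a neutrophil protein (1.66, adjusted p = 0.0145), and Adipoq, an adipocyte hormone (adjusted p = 0.0269). edgeR called neither Cps1 nor S100a9, and its filter on low counts removed Adipoq, which had 1.01 CPM in WT 3, 0.162 and 0.0964 CPM in WT 1 and WT 2, and 0 in KO. The part of cell composition, feeding or hour of sampling in the values of the enzymes was not tested.

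The genes outside the list whose levels followed the mean of the enzymes most closely were sought among 1434 genes with a mean of at least 5 CPM and an SD of log2(CPM + 1) of at least 0.3. Rdh11, a retinol dehydrogenase, had the highest r of all (0.99), with 50.4, 40.8 and 49.4 CPM in WT 1, 2 and 3 and 27.1, 50.2 and 51.8 CPM in KO 1, 2 and 4. It was lowest in KO 1, like the enzymes. Fmn1 (0.97), Dpt (0.94), Fabp5 (0.94), Tlcd2 (0.93), Cyp2d40 (0.89), Ttc7 (0.88), Phldb1 (0.87) and Aqp8 (0.86) were among the first 12. Fabp5, a fatty acid-binding protein, had 26.7 to 35.8 CPM in WT and 5.57, 32.2 and 42 CPM in KO 1, 2 and 4. Among members outside the enzymes, r with the same mean was 0.92 for Insig1, 0.85 for Stard4, 0.82 for Mbtps1 and 0.81 for Tmem97. It was 0.77 for Srebf2, 0.76 for Aacs, 0.69 for Scap and 0.25 for Mbtps2. Negative values were those of Insig2 (-0.71), Soat1 (-0.49), Casp2 (-0.41) and Soat2 (-0.36). These values are descriptions over 6 libraries.

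Promoters were read to see which members carry the letters of a sterol regulatory element near their start. Of the 31 genes, 26 matched a RefSeq promoter on GRCm38.p6, from 250 bases before to 50 after the start. The other 5, Fdps, Fdft1, Soat2, Sqle and Stard4, had no match and were not searched. The element was searched on both strands as TCACNCCAC and, more loosely, as CACNCCAC, which every match of the first form also holds. The first form was found in 1 of the 26 genes (3.85%), Hmgcs1, and in 1.47% of the 10463 tested genes with a promoter in the table. The second was found in 3 of the 26 (11.5%), against 7.68%. CCAAT, the box bound by NF-Y, was found in 21 of the 26 (80.8%), against 42.7%, the GC box GGGCGG in 22 (84.6%), against 66.2%, and the E-box CACGTG in 5 (19.2%), against 11.6%. A match is a run of letters and not a measured site, and these shares were not tested.

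The promoters of the 3 genes with either form are printed because they hold letters that match the element SREBPs are named after. The match is in capitals. Hmgcs1 lies at chr13:119690101-119690400 on the plus strand, with the match starting 137 bases before the start, and it had the largest log2 fold change in size of the 31. Insig1 lies at chr5:28071162-28071461 on the plus strand, with the looser form on the opposite strand 9 bases before the start. Acat2 lies at chr17:12960676-12960975 on the minus strand, with the looser form 181 bases before the start and, on the opposite strand, 53 bases before it.
Hmgcs1: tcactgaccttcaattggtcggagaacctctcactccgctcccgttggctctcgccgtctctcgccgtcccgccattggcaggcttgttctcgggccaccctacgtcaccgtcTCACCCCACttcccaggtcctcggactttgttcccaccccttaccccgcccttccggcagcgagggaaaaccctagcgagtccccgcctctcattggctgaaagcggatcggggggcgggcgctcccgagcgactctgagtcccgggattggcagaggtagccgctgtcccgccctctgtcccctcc
Insig1: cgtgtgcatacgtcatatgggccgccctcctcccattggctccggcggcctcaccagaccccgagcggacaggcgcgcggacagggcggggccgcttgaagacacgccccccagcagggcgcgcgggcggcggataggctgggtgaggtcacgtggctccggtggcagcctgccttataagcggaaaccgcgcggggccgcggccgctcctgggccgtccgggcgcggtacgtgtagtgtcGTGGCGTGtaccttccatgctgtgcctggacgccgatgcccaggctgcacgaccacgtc
Acat2: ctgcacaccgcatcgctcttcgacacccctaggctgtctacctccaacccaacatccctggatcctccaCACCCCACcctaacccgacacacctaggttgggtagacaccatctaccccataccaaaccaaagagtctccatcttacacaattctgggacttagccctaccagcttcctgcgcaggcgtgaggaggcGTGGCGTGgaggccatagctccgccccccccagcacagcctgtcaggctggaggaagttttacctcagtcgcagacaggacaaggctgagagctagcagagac
All 3 genes had KO 1 as their lowest library, at 95.9 CPM for Hmgcs1, 131 CPM for Insig1 and 33 CPM for Acat2. This was not particular to them, since KO 1 was lowest for 22 of the 31 genes and 16.6% of all genes tested. Mvd, Cyp51, Msmo1 and Nsdhl, in which neither form was found, were also lowest in KO 1. None of the 3 genes passed the test in edgeR (adjusted p = 0.781, 0.936 and 0.998).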

How the data were processed

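The values deposited by the authors are raw counts per gene, in whole numbers, in 1 table of 6 libraries. Per the labels and the study's methods, polyadenylated RNA was made into directional libraries, sequenced as 75-bp single-end NextSeq reads, trimmed with Trimmomatic, aligned with STAR 2.5.0c to GRCm38.p5 with GENCODE M12 and counted with featureCounts. Of 49671 identifiers, 49326 were found in GENCODE M21, which gave symbols, positions and exon lengths.

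The counts were tested in R 4.3.3 with edgeR 4.0.16 (filterByExpr, TMM, glmQLFit and glmQLFTest) on all genes, with Benjamini-Hochberg adjustment over all genes tested, and a call is an adjusted p under 0.05. Nothing in the labels pairs the replicate numbers that both groups share. Alternatives were DESeq2 1.42.0, limma-voom (limma 3.58.1), DESeq2's size factors, library totals, robust dispersions, the filter left off or raised to 10 counts in each library, the replicate number as a block, and the omission of single libraries. For correlations, log2(CPM + 1) was used, or a pseudocount of 0.1. The fits were tested on simulated data. Figures were drawn with matplotlib 3.10.9, and scipy 1.17.1, pandas 2.3.3 and numpy 2.4.6 served for other values.

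The members and the lists were chosen with earlier results of these data known. All members are named. Of the other pathway lists, genes called by edgeR or DESeq2 or with one of the 3 smallest edgeR p-values were named, of the marker lists the called genes only, and of the genes most like the enzymes the first 12. A few genes named by these rules are left out here. As the labels name no litter, cage or extraction, p-values measure only the spread between these libraries.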

Additional observations from a re-analysis of the deposited data

Results flagged for a closer look

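Reads of Ddx3y, Uty, Kdm5d and Eif2s3y, on the Y chromosome, came to 4712 counts in KO 4. They enter no comparison of the pathway genes, and the other 5 libraries held 0 to 2 of them. This set KO 4 apart from the other KO libraries in data outside the main measurement. By these counts KO 4 was the only library from a male, so sex was not balanced between KO and WT. The part of sex in the values of the pathway genes was not tested. Within the pathway, KO 4 was the highest library for 9 of the 31 genes and the lowest for 1, while it was the highest for 21.7% and the lowest for 21% of all genes tested.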

How the results depend on the processing

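The count of 0 called genes among the 31 was the same under all 14 alternatives, the 6 single libraries left out and the replicate block included. In the fit with the replicate number as a block, 468 of all genes were called but 0 of the 31, with a smallest adjusted p of 0.155 (edgeR), and the median log2 fold change of the enzymes was -0.32. That median was -0.13 with all libraries and ranged from -0.31 to 0.17 as libraries were left out. It was positive without KO 1 (0.17) and without WT 3 (0.02), and negative under each of the other alternatives. The median r among the enzymes was 0.71, 0.44 without KO 1 (added after the data were seen) and 0.81 without KO 4. Of 434 log2 fold changes of single genes under the alternatives, 382 kept their sign and 52 changed it, in 23 of the 31 genes, and 0 became a call. Scap, Hmgcs1, Ggps1, Hsd17b7, Sc5d, Soat1, Soat2 and Casp2 kept theirs throughout. Over all genes, the calls were 158 with DESeq2, 136 with no filter on low counts, 9 with robust dispersions, 5 with limma-voom, 114 without KO 4 and 0 in edgeR with all libraries. With 3 libraries per group and a median standard error of 0.33 for the enzymes, the interval reached beyond a 1.5-fold difference for 24 of the 31 genes. Low counts limit the values of Soat1 (81 to 231 counts), Casp2 (117 to 194) and Ggps1 (128 to 213). In KO 1 they also limit those of Fdps (90 counts), Mvd (123) and Idi1 (175). The cause of the changes of sign was not tested.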
